A study of Rattus norvegicus with 23 samples.

Results

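Transcripts of 6 transcription factor genes were followed in rat neural stem cells on a soft or a stiff substrate: Fos (ENSRNOG00000008015), Jun (ENSRNOG00000026293), Junb (ENSRNOG00000042838), Atf3 (ENSRNOG00000003745), Egr1 (ENSRNOG00000019422) and Myc (ENSRNOG00000004500). The genes were chosen by identifier as immediate-early and Myc factors, and they are 6 of 32883 genes in the count table. All 6 had at least 10 counts in at least 2 libraries and were among the 11857 genes tested. The gene names came with the list of identifiers. The table of gene names used here matched 0 of the 32883 identifiers, so the pairing of names with identifiers was not checked, and markers of the labelled cell type could not be looked up.

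The cells were wild-type neural stem cells from the hippocampus of adult female rats, and every group was labelled with the same medium for mixed differentiation, DMEM-F12 and N2 with 1 uM retinoic acid and 1% FBS (fetal bovine serum). They were sampled at 0, 12, 24 and 36 h on either substrate, with 3 libraries in each group and 2 for soft at 12 h, which makes 23 libraries. The labels give neither the stiffness of the substrates nor the number of animals, and do not say whether the rounds that number the replicates are separate cultures, so p-values measure the spread between these libraries, which may be technical. Libraries were made with QuantSeq FWD, a method that reads each polyadenylated transcript close to its 3′ end, and levels are given as CPM, the counts of a gene scaled to a common library size.

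Immediate-early genes are switched on by signals from outside the cell without new protein synthesis, and their transcripts and proteins are short-lived. Fos proteins pair with Jun proteins (Jun, Junb) to form AP-1, a dimer that binds DNA and activates or represses genes of growth, differentiation and stress. Atf3 is a stress-inducible factor of the ATF/CREB family that can also pair with Jun proteins, Egr1 is a zinc finger factor induced by growth factors and neuronal activity, and Myc pairs with Max to promote cell growth, ribosome production and division.

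Promoter sequences from RefSeq were found by symbol for 2 of the 6 genes, Junb and Egr1. The 250 bases before the Junb start site (GRCr8, chr19:40080876-40081125, + strand) are shown because Junb was among the genes that rose after 12 h. Capitals mark TGACG, a part of the CRE site to which ATF/CREB factors bind, and TATAAA, each searched on both strands.
Junb: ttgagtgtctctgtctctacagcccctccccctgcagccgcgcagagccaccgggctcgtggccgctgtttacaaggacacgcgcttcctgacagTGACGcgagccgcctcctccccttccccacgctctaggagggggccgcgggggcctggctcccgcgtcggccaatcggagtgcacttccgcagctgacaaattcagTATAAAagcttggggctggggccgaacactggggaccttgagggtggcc
TGACG began 155 bases and TATAAA 49 bases before the start. In the same window TGACG occurred in 18.2% and TATAAA in 12.9% of 33469 promoters. The AP-1 motif TGANTCA, in 6.34% of promoters, the full site TGACGTCA, in 1.59%, and the CArG box, the site of serum response factor, in 1.5%, were not in this window of Junb. The Egr1 window held 2 CArG boxes, CCATATTAGG and CCATATATGG, which began 105 and 83 bases before the start. It also held TGACG on the opposite strand at 2 places, 135 and 66 bases before the start.

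Library totals ran from 2462360 to 6811157 counts. At 12 h the 2 soft libraries (5428086 and 6519349 counts) were deeper than the 3 stiff ones (2462360 to 4803755). The 2 soft libraries at 12 h also differed from each other in several of the 6 genes, most of all in Egr1 and Myc, so results that use them are given without each where that changed a call of the 6 genes. With 1 of the 2 left out, the remaining library was assumed to vary like the other groups. The deposited counts of the 6 genes ran from 8 (Egr1, soft 0 h replicate 3) to 5957 (Jun, soft 36 h replicate 2) in a library.

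From 0 h to 36 h Fos, Jun, Junb and Atf3 rose and Myc fell on both substrates, while Egr1 was higher at 12 h than at 0 h and at 24 h. The rises were from 4.06-fold to 30.8-fold on soft and from 4.35-fold to 22-fold on stiff. With 4 of the 6 genes called higher and 1 lower over the whole course, the background was 28% of all tested genes called higher and 26.2% lower on soft, and 29.2% and 28.3% on stiff. Between substrates 0 of the 6 genes were called at any single time, where the share of all tested genes called was 0% for the 0 h libraries, 6.6% for those of 12 h, 0% for those of 24 h and 0.0675% for those of 36 h. Differences were tested with edgeR's quasi-likelihood test on 1 fit of all libraries, and a gene counts as called at a p under 0.05 after Benjamini-Hochberg adjustment across the 11857 genes, given below as edgeR adjusted p.

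**Figure D1:**
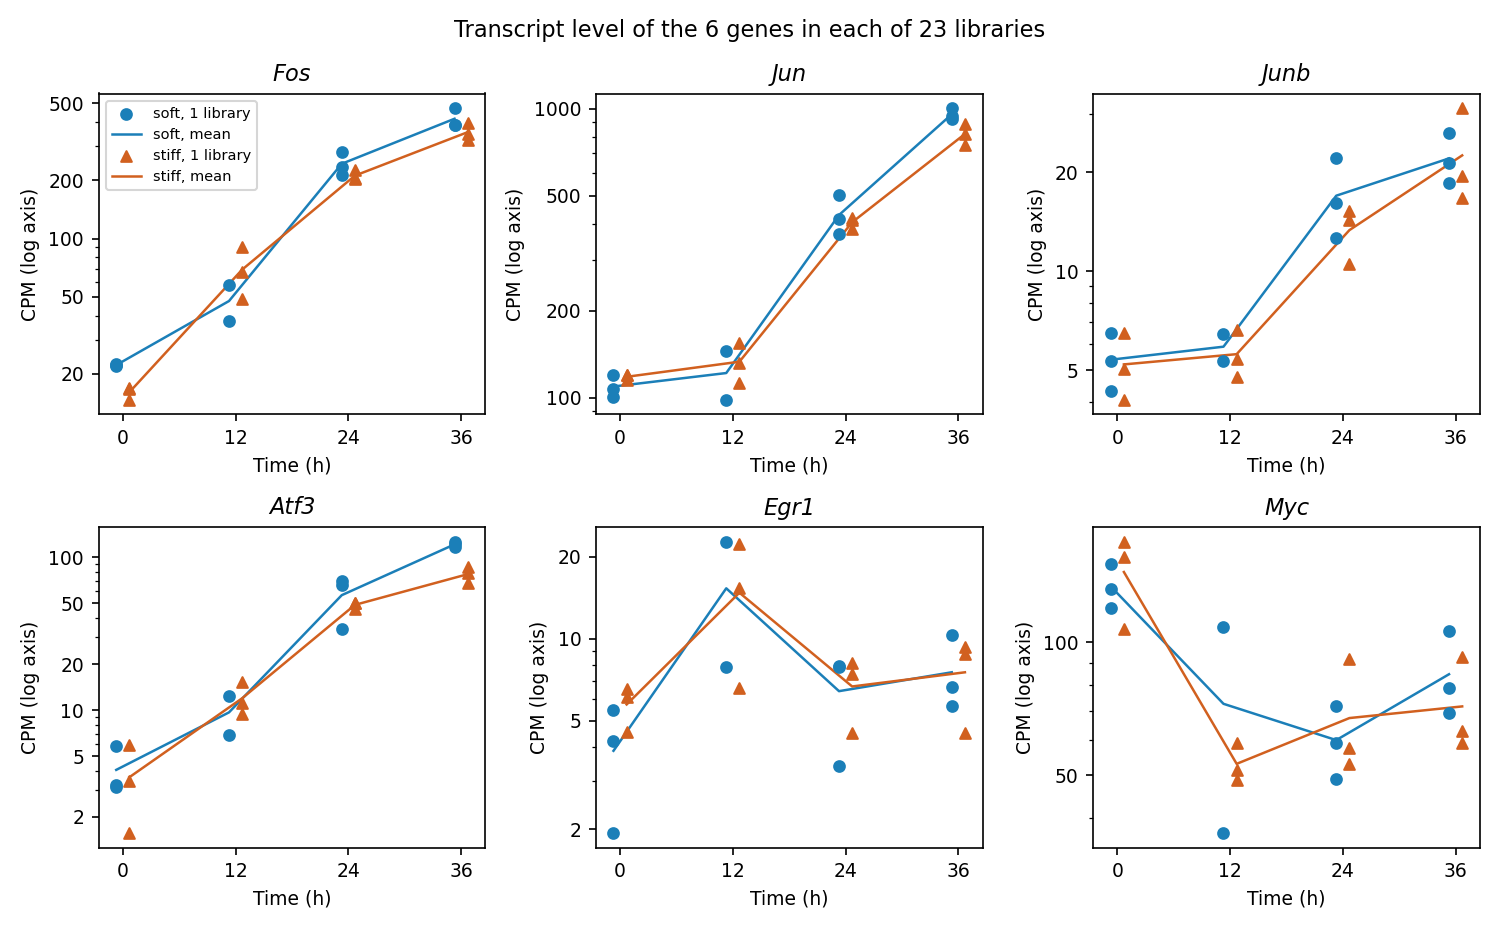
Level of each gene in CPM (log axis) against time in h, with 1 point per library (circles, soft; triangles, stiff) and lines through the group means. Fos and Atf3 were higher at each later time, Jun and Junb stayed near their 0 h level until 12 h, Egr1 was highest at 12 h with widely spread libraries, and Myc was highest at 0 h.

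Fos, the AP-1 partner that needs a Jun protein to bind DNA, was higher at every later time point. On soft its level was 22.1, 22.6 and 21.98 CPM in the 3 libraries at 0 h, 37.5 and 57.6 CPM at 12 h, 214, 235 and 281 CPM at 24 h, and 471, 387 and 388 CPM at 36 h. On stiff it was 16.7, 16.9 and 14.7 CPM at 0 h, 49.0, 67.5 and 90.9 CPM at 12 h, 206, 202 and 225 CPM at 24 h, and 393, 346 and 324 CPM at 36 h. On either substrate no library of one time overlapped with those of the next. The rise over 36 h was 18.6-fold on soft (log2 fold change 4.22, SE 0.16, edgeR adjusted p = 2.49e-20) and 21.9-fold on stiff (4.45, SE 0.17, edgeR adjusted p = 8.50e-21). It ranked 115 on soft and 97 on stiff among the 11857 genes by log2 fold change. Each of the 3 steps passed the test on both substrates. The first 12 h brought a log2 fold change of 1.11 (SE 0.19) on soft and 2.07 (SE 0.18) on stiff, and the next 12 h 2.34 (SE 0.17) and 1.64 (SE 0.15), so the order of the substrates in the first step was the opposite of that in the second. Both steps use the same 12 h libraries. From 24 h to 36 h the log2 fold changes were 0.77 and 0.74 (SE 0.13 each).

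Jun, which can form AP-1 with itself or with Fos, was first called higher from 12 h to 24 h. Its libraries lay at 121, 108 and 100 CPM on soft and 120, 120 and 115 CPM on stiff at 0 h, and at 98.6 and 145 CPM on soft and 112, 133 and 155 CPM on stiff at 12 h. The 0 h and 12 h libraries overlapped on both substrates. The log2 fold change over this step was 0.16 on soft (95% confidence interval -0.11 to 0.43) and 0.16 on stiff (-0.08 to 0.41), and it was called on soft without soft 12 h replicate 1 (0.40, edgeR adjusted p = 0.0446). By 24 h the level was 368, 416 and 502 CPM on soft and 418, 383 and 413 CPM on stiff, and by 36 h it was 1005, 919 and 947 CPM and 885, 818 and 750 CPM. These ranges no longer overlapped with those of the time before. The step from 12 h to 24 h had a log2 fold change of 1.81 on soft (SE 0.14, edgeR adjusted p = 6.26e-12) and 1.61 on stiff (SE 0.12, edgeR adjusted p = 1.18e-11). The step from 24 h to 36 h was 1.16 on soft (SE 0.11, edgeR adjusted p = 1.78e-08) and 1.01 on stiff (SE 0.11, edgeR adjusted p = 1.87e-07), with the 7th and 14th smallest p of all tested genes. Over 36 h Jun rose 8.72-fold on soft and 6.91-fold on stiff.

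Junb, a Jun relative that often acts as a weaker activator, was likewise not called from 0 h to 12 h, at a much lower tag count. At 0 h it was at 4.31, 6.50 and 5.31 CPM on soft and 5.04, 4.06 and 6.50 CPM on stiff, and at 12 h at 5.33 and 6.44 CPM and 6.63, 5.38 and 4.75 CPM. The log2 fold change over this step was 0.13 on soft (95% confidence interval -0.53 to 0.79) and 0.15 on stiff (-0.50 to 0.79), from 13 to 41 counts per library. At 24 h its libraries were at 16.2, 22.1 and 12.6 CPM on soft and 14.3, 10.5 and 15.2 CPM on stiff, and all lay above those of 12 h. The rise from 12 h to 24 h was 2.89-fold on soft (log2 1.53, SE 0.29, edgeR adjusted p = 7.70e-05) and 2.34-fold on stiff (log2 1.23, SE 0.28, edgeR adjusted p = 0.00108). At 36 h the level was 26.3, 21.3 and 18.5 CPM on soft and 31.3, 19.4 and 16.7 CPM on stiff. The last step passed the test on stiff (log2 0.75, SE 0.23, edgeR adjusted p = 0.0322) and did not on soft (log2 0.36, 95% confidence interval -0.11 to 0.82). The difference between these steps was not tested, and the call on stiff was lost without stiff 36 h replicate 1 (log2 0.44, edgeR adjusted p = 0.365), without stiff 24 h replicate 1 (0.0563) or without stiff 24 h replicate 2 (0.172).

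Atf3, which is induced by injury and stress in many tissues, had the largest rise of the 6 genes on soft. At 0 h its libraries lay at 3.14, 3.25 and 5.80 CPM on soft and 3.41, 1.56 and 5.93 CPM on stiff. At 12 h they lay at 6.92 and 12.4 CPM on soft and 9.41, 11.2 and 15.3 CPM on stiff, above those of 0 h on each substrate. The rise over this step was 2.51-fold on soft (log2 1.32, SE 0.37, edgeR adjusted p = 0.00666) and 3.31-fold on stiff (log2 1.73, SE 0.36, edgeR adjusted p = 0.000459). On soft it was not called without soft 12 h replicate 3 (log2 0.80, edgeR adjusted p = 0.29). At 24 h the level was 33.9, 66.0 and 69.8 CPM on soft and 50.1, 50.5 and 46.0 CPM on stiff, and at 36 h 116, 122 and 127 CPM on soft and 86.7, 78.5 and 67.6 CPM on stiff. Over 36 h Atf3 rose 30.8-fold on soft (log2 4.95, SE 0.27, rank 81 among the tested genes) and 22-fold on stiff (log2 4.46, SE 0.27, rank 96). The last step was 1.10 on soft (SE 0.19, edgeR adjusted p = 0.000168) and 0.67 on stiff (SE 0.19, edgeR adjusted p = 0.0235). On stiff its call was lost when any of 4 of the 6 libraries was left out: stiff 36 h replicate 1 (edgeR adjusted p = 0.128) or 2 (0.068), or stiff 24 h replicate 2 (0.0654) or 3 (0.087). It was also lost with DESeq2 (adjusted p = 0.172).

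Egr1 was the one gene of the 6 that was higher at 12 h than at the times on both sides. On soft it was at 5.49, 4.22 and 1.93 CPM at 0 h, 7.90 and 22.8 CPM at 12 h, 7.98, 3.42 and 7.88 CPM at 24 h, and 10.3, 6.63 and 5.67 CPM at 36 h. On stiff it was at 4.55, 6.56 and 6.12 CPM at 0 h, 6.63, 15.3 and 22.4 CPM at 12 h, 7.43, 4.51 and 8.12 CPM at 24 h, and 4.51, 8.77 and 9.34 CPM at 36 h. The 12 h libraries lay above all those of 0 h on each substrate, and overlapped with those of 24 h. The lowest 12 h library was replicate 1 on both substrates. The rise by 12 h was 3.90-fold on soft (log2 1.96, SE 0.44, edgeR adjusted p = 0.000869) and 2.48-fold on stiff (log2 1.31, SE 0.41, edgeR adjusted p = 0.018). The fall from 12 h to 24 h had a log2 fold change of -1.32 on soft (SE 0.42, edgeR adjusted p = 0.0123) and -1.07 on stiff (SE 0.40, edgeR adjusted p = 0.0376). These calls depended on single libraries. Without replicate 3 of the 12 h libraries the rise was 0.97 on soft (edgeR adjusted p = 0.238) and 0.84 on stiff (0.228), and the fall -0.32 (0.707) and -0.61 (0.334). The rise on stiff was also lost without stiff 0 h replicate 1 (0.0702) or stiff 12 h replicate 2 (0.0543). The fall was also lost without soft 24 h replicate 2 (0.0881) on soft, without stiff 12 h replicate 2 (0.0938) or stiff 24 h replicate 1 (0.0613) or 2 (0.136) on stiff, and with DESeq2 (adjusted p = 0.0655 and 0.083). Between 0 h and 36 h the log2 fold change was 0.91 on soft (95% confidence interval -0.01 to 1.84) and 0.40 on stiff (-0.46 to 1.25). The value on soft was called with no filter on low counts (edgeR adjusted p = 0.0113) and in a fit of the compared groups alone (0.0363). Without the filter, here and below, p-values of the 6 genes were often much smaller at like fold changes. Myc from 0 h to 12 h on soft had a log2 fold change of -0.87 (edgeR adjusted p = 1.4e-10) without it, and -0.86 (0.0126) in the main fit.

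Myc was highest at 0 h, with 132, 120 and 150 CPM on soft and 107, 156 and 169 CPM on stiff. On stiff the 12 h libraries lay at 51.3, 48.9 and 59.0 CPM, all below those of 0 h. The fall on stiff was 2.72-fold (log2 fold change -1.44, SE 0.25, edgeR adjusted p = 4.11e-05), which ranked 191 among the tested genes counted from the largest fall over this step. On soft the 2 libraries at 12 h were at 36.9 and 108 CPM, both below every 0 h library on soft. The log2 fold change over this step on soft was -0.86 (SE 0.26, edgeR adjusted p = 0.0126). It was -0.31 (edgeR adjusted p = 0.423) without replicate 1 and -1.87 (1.58e-05) without replicate 3. At 24 h Myc was at 49.1, 59.3 and 71.8 CPM on soft and 52.9, 57.6 and 91.6 CPM on stiff, and at 36 h at 69.0, 78.9 and 106 CPM and 92.5, 59.3 and 63.1 CPM. Neither later step passed the test on either substrate. The exceptions among the alternatives were the step from 12 h to 24 h on soft without soft 12 h replicate 1 (log2 -0.85, edgeR adjusted p = 0.00886) and, with no filter on low counts, that step on stiff (0.40, 0.00857) and the step from 24 h to 36 h on soft (0.47, 0.00196). Without soft 12 h replicate 3 the step from 12 h to 24 h on soft had the opposite sign (0.72, 0.0618). The level at 36 h stayed below that of 0 h, with log2 fold changes of -0.67 on soft (SE 0.24, edgeR adjusted p = 0.0162) and -1.01 on stiff (SE 0.24, edgeR adjusted p = 0.00043). On soft this call was lost without soft 36 h replicate 1 (0.0796) or 2 (0.0633), without soft 0 h replicate 3 (0.0501), and with DESeq2 (adjusted p = 0.0656).

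The group means ordered the levels of each gene as follows. Fos, Jun and Atf3 were highest in soft at 36 h, at 415 ± 48.6, 957 ± 43.9 and 122 ± 5.33 CPM (SD, n = 3), ahead of stiff at 36 h at 354 ± 35.1, 818 ± 67.2 and 77.6 ± 9.56 CPM. For Junb these groups were at 22.01 ± 3.93 and 22.5 ± 7.77 CPM, closer than the spread of either. Egr1 was at 15.3 ± 10.5 CPM (SD, n = 2) in soft and 14.8 ± 7.90 CPM (SD, n = 3) in stiff at 12 h, between 6.43 and 7.54 CPM in the 4 groups of 24 h and 36 h, and at 3.88 ± 1.80 CPM in soft and 5.74 ± 1.05 CPM in stiff at 0 h. For Myc, stiff and soft at 0 h came first, at 144 ± 32.6 and 134 ± 15.4 CPM (SD, n = 3), and the other 6 groups lay between 53.1 CPM (stiff 12 h) and 84.7 CPM (soft 36 h).

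The members called in each step were then set beside the share of all 11857 genes called the same way. From 0 h to 12 h Fos, Egr1 and Atf3 rose and Myc fell on both substrates, that is 3 of 6 higher and 1 lower, where 15.2% of all tested genes were called higher and 13.9% lower on soft, and 11.8% and 9.75% on stiff. Without soft 12 h replicate 3 the log2 fold change on soft was 0.97 for Egr1 and 0.80 for Atf3, against 1.96 and 1.32 in the main fit. From 12 h to 24 h Fos, Jun, Junb and Atf3 rose and Egr1 fell on both substrates, against 19% of all genes higher and 19.1% lower on soft and 14.5% and 16.1% on stiff. From 24 h to 36 h Fos, Jun and Atf3 rose on soft, where 4.66% of all genes were called higher. On stiff Junb rose as well, where 4.6% were called higher. The median log2 fold change of the 6 genes over the whole course was 2.57 on soft and 2.45 on stiff, and that of all tested genes 0.02 and 0.01.

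**Figure D2:**
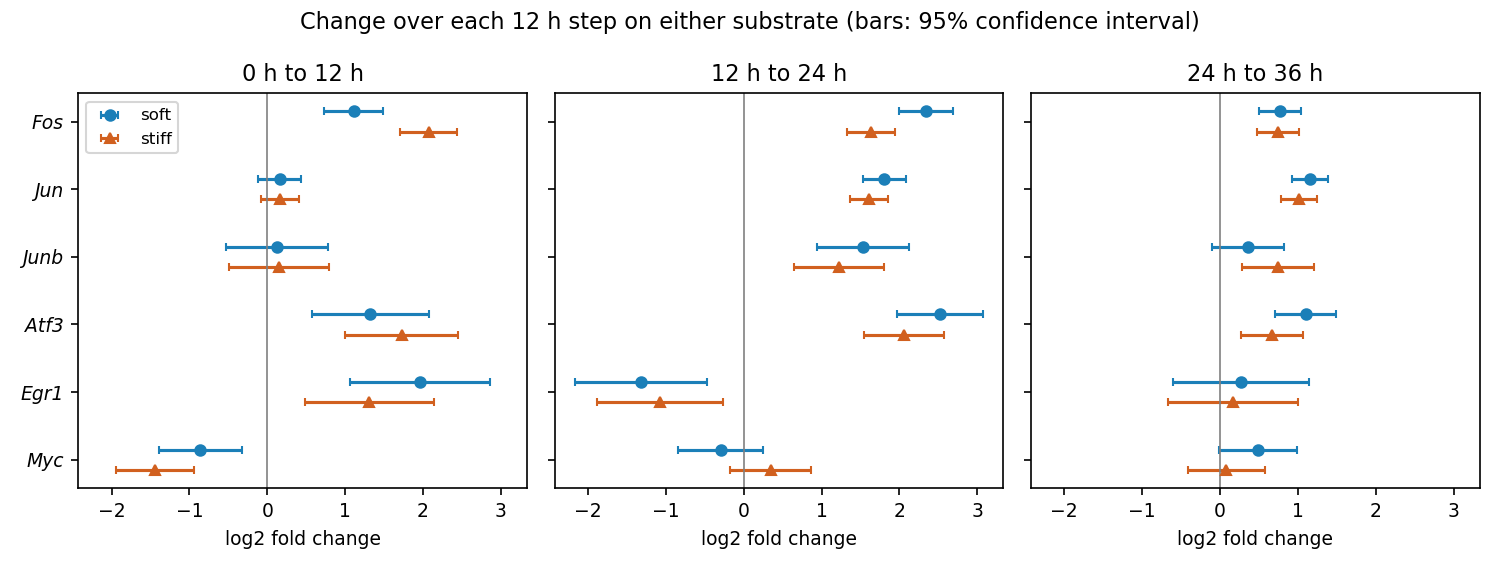
Log2 fold change of each gene (x axis) over the steps from 0 h to 12 h, 12 h to 24 h and 24 h to 36 h on soft (circles) and stiff (triangles), with 95% confidence intervals from the edgeR fit as bars. Jun and Junb lie near 0 in the first step, at 0.13 to 0.16, and at 1.23 to 1.81 in the second, while Egr1 changes from positive to negative values.

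Between substrates none of the 6 genes was called at 0, 12, 24 or 36 h by edgeR's quasi-likelihood test or by DESeq2. An unadjusted p under 0.05 was reached by 1 of the 6 at 0 h (Fos), 1 at 12 h (Fos), 0 at 24 h and 2 at 36 h (Jun and Atf3). Across all genes it was reached by 431 for the 0 h libraries, 2284 for those of 12 h, 358 for those of 24 h and 835 for those of 36 h. DESeq2 called 0 of all genes at 0 h and 24 h, 7.19% at 12 h and 0.219% at 36 h.

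Atf3 at 36 h had the largest difference of the 6 between substrates at a single time, and its soft libraries (116 to 127 CPM) did not overlap with its stiff ones (67.6 to 86.7 CPM). The log2 fold change of stiff against soft was -0.64 (95% confidence interval -1.03 to -0.26, edgeR adjusted p = 0.241). It had the 94th smallest p of all genes in a comparison that called 8, and it was called in a fit of the 36 h libraries alone (edgeR adjusted p = 0.0068) and with no filter on low counts (0.000528). The setting with no filter gave smaller p-values at like fold changes, as given above for Myc. Over the 13 alternatives for this value the adjusted p ran from 0.000528 to 0.783 and the log2 fold change from -0.73 to -0.56. Jun at 36 h was also lower on stiff without overlap, by a log2 fold change of -0.23 (95% confidence interval -0.45 to -0.00135, edgeR adjusted p = 0.709). Fos at 36 h had a similar value of -0.23 (-0.50 to 0.04), with overlapping libraries. The share of all tested genes without overlap between substrates was not counted at this or any other time.

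The estimated substrate difference of Fos had opposite signs at 0 h and 12 h, and was called at neither time. At 0 h its stiff libraries (14.7 to 16.9 CPM) lay below its soft ones (21.98 to 22.6 CPM) with no overlap, with a log2 fold change of -0.46 (95% confidence interval -0.85 to -0.07, edgeR adjusted p = 1). At 12 h the log2 fold change was 0.50 (0.14 to 0.86, edgeR adjusted p = 0.0848), with the stiff libraries at 49.0 to 90.9 CPM and the soft ones at 37.5 and 57.6 CPM. The 12 h value was called without soft 12 h replicate 3 (log2 0.86, edgeR adjusted p = 0.0229), without stiff 12 h replicate 1 (0.76, 0.00421) and with no filter on low counts (0.49, 0.00579), and was 0.24 (0.616) without soft 12 h replicate 1.

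The change of the substrate difference from 0 h to 12 h was tested itself. Fos was the only one of the 6 genes called, with the difference on stiff minus soft moving by 0.96 on the log2 scale (SE 0.26, edgeR adjusted p = 0.0464), where 1.87% of all tested genes were called. The call lies close to the threshold and was lost without any 1 of 8 of the 11 libraries used: with soft 0 h replicate 1 or 2, any of the 3 stiff 0 h libraries, soft 12 h replicate 1, or stiff 12 h replicate 2 or 3 left out, the adjusted p was 0.059 to 0.252. Without soft 12 h replicate 1, Myc was the gene called instead, with a value of -1.14 (edgeR adjusted p = 0.0491). From 12 h to 24 h the substrate difference of Fos moved by -0.70 (SE 0.22, edgeR adjusted p = 0.0627), not called, where 4.44% of all genes were. It was called without soft 12 h replicate 3 (-1.06, edgeR adjusted p = 0.0136), soft 24 h replicate 1 (-0.81, 0.0342) or stiff 12 h replicate 1 (-0.96, 0.0038), and Myc was called without soft 12 h replicate 1 (1.2, 0.0231). In edgeR's F test over all times none of the 6 was called, with an unadjusted p under 0.05 in 1 (Fos, edgeR adjusted p = 0.0831). DESeq2's test over all times also called none of the 6. Of all genes, edgeR called 3.31% and DESeq2 4.5%. Fos was called in edgeR's F test without stiff 12 h replicate 1 (edgeR adjusted p = 0.00432) and with no filter on low counts (0.000111). It was also called without soft 12 h replicate 3, a fit that left a single library in that group. With the round as a replicate block, edgeR called Fos between substrates at 12 h (adjusted p = 0.0464), for the change from 12 h to 24 h (0.0298) and in the F test (0.0361).

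For Myc the sign of the 12 h difference depended on 1 soft library. With both, the log2 fold change of stiff against soft was -0.47 (95% confidence interval -1.04 to 0.10, edgeR adjusted p = 0.37). It was -1.03 (0.0116) without soft 12 h replicate 1 and 0.52 (0.431) without replicate 3, and it was called with no filter on low counts (-0.49, 0.00907). The remaining differences, in Junb and Egr1 at every time, Atf3 before 36 h, Jun before 36 h, Fos at 24 h and Myc at 0, 24 and 36 h, had 95% confidence intervals that held 0. The widest were those of Egr1, with -0.38 to 1.43 at 0 h and -0.86 to 0.88 at 36 h.

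**Figure D3:**
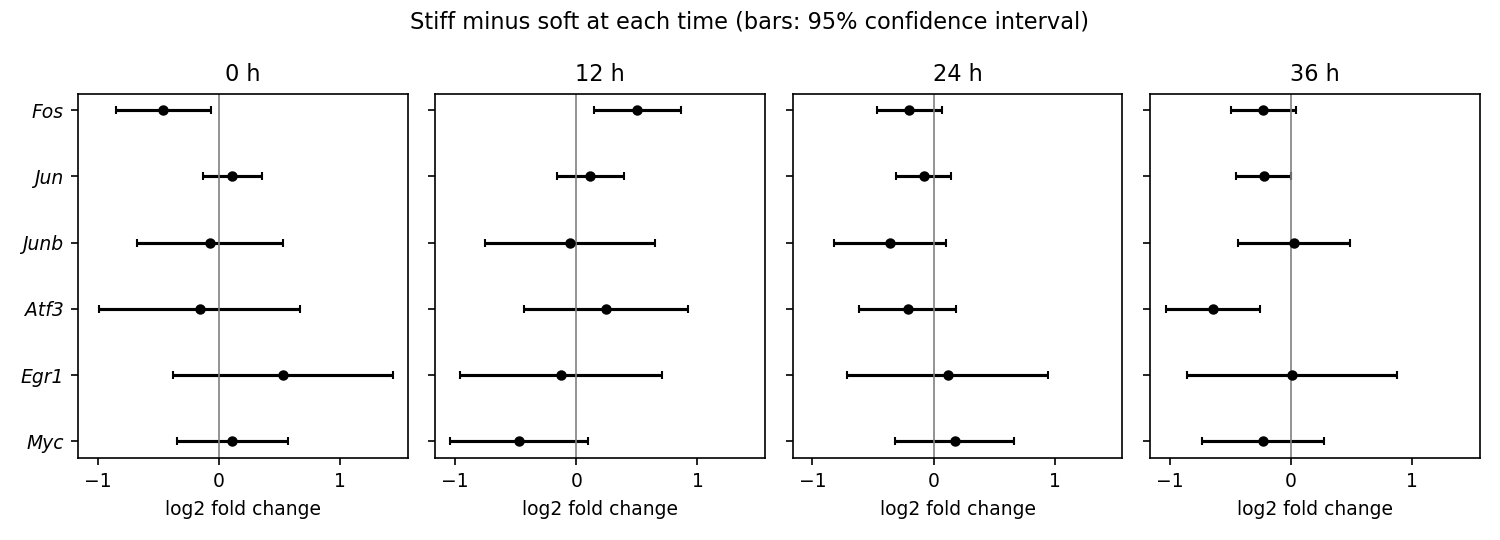
Log2 fold change of stiff against soft (x axis) for each gene at 0, 12, 24 and 36 h, with 95% confidence intervals from the edgeR fit. Values lie between -0.64 (Atf3, 36 h) and 0.53 (Egr1, 0 h), and Fos lies at -0.46 at 0 h and 0.50 at 12 h.

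Within a library, the counts of Fos per count of Jun do not depend on the total or its scaling, and they changed with time. The ratio was 0.184, 0.210 and 0.219 in soft and 0.140, 0.141 and 0.127 in stiff at 0 h, with no overlap. At 12 h it was 0.381 and 0.397 in soft and 0.435, 0.509 and 0.585 in stiff, again with no overlap and with the substrates in the opposite order. At 24 h it was 0.56 to 0.58 in soft and 0.494 to 0.545 in stiff. At 36 h it was 0.433 ± 0.0317 in soft and 0.433 ± 0.0105 in stiff (SD, n = 3 each), below every library of 24 h, as Jun counts had grown by a larger factor than Fos counts over that step. The 2 genes have different 3′ ends, so the ratio compares libraries and is not a ratio of molecules. The ratios reuse the Fos counts of the same libraries, so they are not separate evidence for the Fos differences given above. These values are given as a description, with no test.

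**Figure D4:**
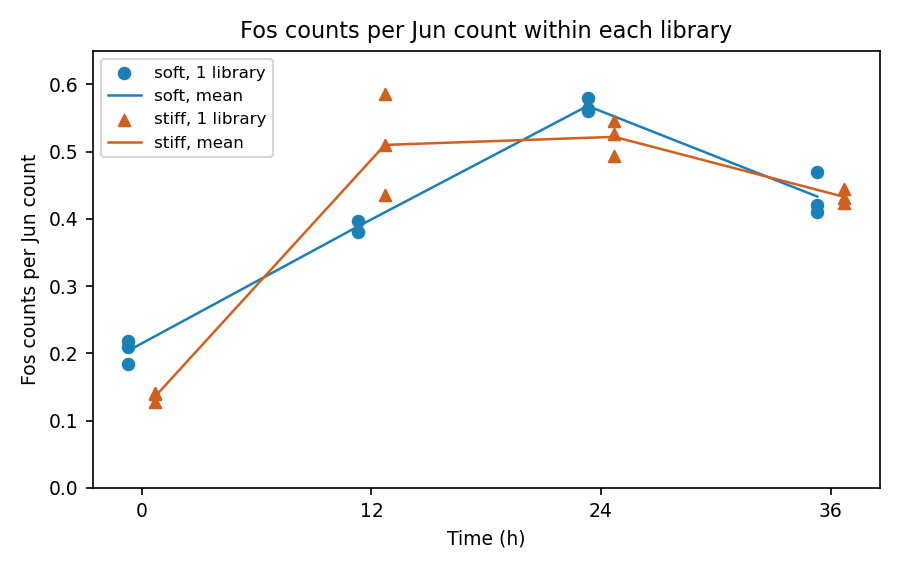
Fos counts per Jun count in each library (y axis) against time in h on soft (circles) and stiff (triangles), with lines through the group means. Soft lies above stiff at 0 h, below it at 12 h, and both means are 0.433 at 36 h.

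Across the 23 libraries, which share the time course, the log2 CPM of Fos, Jun, Junb and Atf3 had Pearson's r of 0.905 to 0.979 in all 6 pairs, as a description. Myc had negative values with each of these 4, from -0.26 to -0.50, and Egr1 values between -0.09 and 0.18. When each library was set against the mean of its own group, which removes time and substrate, Fos and Jun had r of 0.896. Jun had 0.61 with Egr1, 0.593 with Myc and 0.413 with Atf3, and Fos had 0.599 with Egr1, 0.496 with Myc and 0.368 with Atf3. Atf3 and Myc had 0.441, and either Fos or Jun with Junb had -0.03. The remaining pairs were weak: Egr1 had -0.28 with Junb, -0.04 with Atf3 and 0.22 with Myc, and Junb 0.27 with Atf3 and 0.18 with Myc. Genes of 1 library share its scaling and depth. The 2 soft libraries at 12 h lie on opposite sides of their mean by construction. For replicate 3 the log2 deviation was 0.31 for Fos, 0.28 for Jun, 0.74 for Egr1, 0.40 for Atf3 and 0.77 for Myc. Such large deviations weigh heavily in r, above all in the values of Fos and Jun with Myc. The r without these 2 libraries was not computed. Among the other 11851 tested genes, the one most like Fos (r = 0.99 over 23 libraries) and also most like Atf3 (0.983) was ENSRNOG00000006738, with 12.4 ± 1.95 CPM in soft at 0 h and 286 ± 3.30 CPM in soft at 36 h (SD, n = 3). The one most like Jun (0.991) was ENSRNOG00000055089. Many genes shared these courses: 196 had r over 0.95 with Fos, 156 with Jun and 105 with Atf3, against 8 with Junb and 0 with Egr1 or Myc. The files do not pair these identifiers with names.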

How the data were processed

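The file deposited by the authors holds raw counts for 32883 genes in 23 libraries. HISAT2 2.1.0, HTSeq, FastQC and build rn6 are listed in the submitters' processing notes, with no annotation release and no strand setting. Overlapping genes may share reads. Totals ran from 2462360 to 6811157 counts.

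Samples were grouped by substrate and time from their titles. Round 2 of soft at 12 h is not analysed here. Genes passing edgeR's filterByExpr (minimum count 10, minimum total 15) were fitted with 8 group means in edgeR 4.0.16 (R 4.3.3), with TMM factors and the quasi-likelihood F test, and p-values were adjusted by Benjamini-Hochberg over all 11857 tested genes. Standard errors are those implied by F. CPM uses TMM-scaled totals, and log2 CPM a prior count of 2. The test was also run on simulated counts in which few genes changed, unlike these data, and its outcome is not used here. Replicates differed by more than sampling noise: chi-square per degree of freedom was 2.42 to 9.11 in the 22 pairs.

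The 6 genes and all lists were chosen with earlier results of these data known. All 6 are named in each comparison. For likeness, the rule names the tested gene with the highest r with each member, of which 2 are printed. Lists of related genes and cell type markers, set by symbol, could not be used. Alternatives were RLE or upper-quartile factors, no filter, at least 5 CPM in 3 libraries, DESeq2 1.42.0, a round block, the compared groups alone, unscaled totals for CPM, and each library left out. Figures used matplotlib 3.10.9.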

Additional observations from a re-analysis of the deposited data

Results flagged for a closer look

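The substrate difference of Fos was called as changing from 0 h to 12 h, close to the threshold. The difference moved by 0.96 on the log2 scale (SE 0.26, adjusted p = 0.0464 by edgeR with Benjamini-Hochberg adjustment, 11 libraries). It went from -0.46 at 0 h to 0.50 at 12 h, and neither of these was called itself. In 18 alternatives the value ran from 0.70 to 1.32 and the adjusted p from 0.0001 to 0.252, and 8 of the 18 called it. At 12 h the soft libraries were deeper than the stiff ones, and the part of depth in this value was not tested.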

How the results depend on the processing

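The alternatives were applied to 42 single-gene values: those called in the main fit, and some uncalled ones of Fos, Myc, Atf3 and Jun in comparisons of the substrates. Of their 545 repeats, 495 kept their direction and their side of the threshold, 36 lost the call and 13 gained it. In 1 of these repeats the sign changed: Myc, stiff against soft at 12 h, was 0.52 without soft 12 h replicate 3 and -1.03 without replicate 1, the ends of its range with 1 library left out. Signs changed more often among uncalled values outside the 42. Myc from 12 h to 24 h on soft, for example, went from -0.30 to 0.72 without soft 12 h replicate 3. The numbers of the 6 genes called changed by over 1.5 times as follows. With no filter on low counts, 2 were called between substrates at 12 h (5.15% of all genes), 1 at 36 h (0.53%), and 2 in each of the tests of a substrate difference that changes from 0 h to 12 h (1.74%), from 12 h to 24 h (3.68%), or over all times (3.68%). That setting often gave much smaller p-values for the 6 genes at like fold changes. In the compared groups alone, 1 was called between substrates at 36 h (0.267% of all genes) and 0 for the change from 0 h to 12 h (2.17%). For that change 0 were also called with upper-quartile factors (1.8%). Leaving out 1 library, where at least 2 stayed in its group, gave 0 to 1 between substrates at 12 h (4.24% to 5.68% of all genes). It also gave 0 to 1 in each of those 3 tests of a changing difference (1.2% to 2.35%, 3.07% to 5.03% and 2.26% to 3.66%). For 36 h against 24 h on stiff it gave 2 to 4 (4.56% to 8.63%). For 12 h against 0 h on soft the number changed only without soft 12 h replicate 3. The causes were not tested. Same-numbered libraries deviated together only weakly and not throughout. The median r was 0.055 in 77 pairs of libraries of the same round, with 11 over 0.1 and a highest value of 0.1485. In 154 pairs of different rounds it was -0.03, with 0 over 0.1. Deviations within a group sum to 0, so values of different rounds tend to be negative where those of the same round are positive. The 2 sets of pairs are therefore not independent. With a positive median, same-round libraries were somewhat alike, and the round was not used in the main analysis. With the round as a replicate block, 1 of the 6 (Fos) was called between substrates at 12 h (edgeR adjusted p = 0.0464, with 8.17% of all genes called). Fos was then also called for the change from 12 h to 24 h (0.0298, with 5.74%) and in the F test over all times (0.0361, with 4.8%). No other call of the 6 genes changed. Group means in CPM moved by less than 1 SD with unscaled totals. The most similar gene by Pearson's r was never the most similar by Spearman's rho. The deposited counts of Egr1, Junb and Atf3 at 0 h and 12 h, from 8 to 145 per library, limit the precision of their values.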

Other observations

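At 12 h the libraries of round 3 held more of most of these transcripts than those of round 1 on both substrates. For Egr1 round 3 minus round 1 was 1.48 on soft and 1.70 on stiff on the log2 scale, above 99.0% and 99.4% of tested genes. For Fos it was 0.61 and 0.89, for Atf3 0.81 and 0.68, and for Jun 0.56 and 0.46. Myc was high in round 3 on soft by 1.54 and on stiff by 0.20, and Junb by 0.25 and -0.45. Over all tested genes the median difference was -0.02 and -0.01 and the median size 0.2 on either substrate. At 36 h Fos went the other way on both substrates, by -0.28 each. Differences of this size also occurred at other times, in both directions. At 0 h they were 0.81 on soft and 0.73 on stiff for Atf3, and -1.34 and 0.40 for Egr1. For Myc they were 0.55 and 0.79 at 24 h, and 0.62 and -0.55 at 36 h. These differences were not tested.

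The spread between libraries of a group was large in 4 of the 6 genes. The within-group SD of log2 CPM was ranked among the 1000 tested genes nearest in mean level over all groups. It was at percentile 99.6 for Myc (SD 0.41), 99.3 for Atf3 (0.46), 97.9 for Egr1 (0.63) and 96.2 for Fos (0.23). For Jun it was at 89.9 (0.17) and for Junb at 67 (0.32). The largest deviations of Atf3 were in stiff at 0 h, -0.88 in replicate 2 (10 counts) and 0.81 in replicate 3 (31 counts). For Myc they were in soft at 12 h, -0.77 and 0.77. Genes were not matched on their level in single groups, so low counts at 0 h may add to the rank of Atf3.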
